A study of Danio rerio with 6 samples.

Results

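Polycomb chromobox genes encode the subunits that bring canonical Polycomb repressive complex 1 to chromatin, and 7 of the 24462 measured genes were taken as this family: cbx7a, cbx2, cbx6a, cbx6b, CBX7 and 2 identifiers that share the symbol CBX8. The gene cbx7a (ENSDARG00000038025) was chosen by its difference in level between exposed and control embryos in these same libraries, so its own values are given as a description. The other 6 were taken by name only: cbx2 (ENSDARG00000044938), cbx6a (ENSDARG00000071051), cbx6b (ENSDARG00000097543), CBX7 (ENSDARG00000087181, the only identifier left for cbx7b) and CBX8 (ENSDARG00000087327 and ENSDARG00000098771, for cbx8a and cbx8b). The table of gene names does not say which CBX8 identifier is cbx8a and which is cbx8b.

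Proteins of this family carry an amino-terminal chromodomain, which binds histone H3 trimethylated on lysine 27, the mark laid down by Polycomb repressive complex 2. A short box at the other end binds the RING subunit, which ubiquitinates histone H2A, and the complex keeps developmental regulators such as the hox genes repressed outside their domains. In mouse embryonic stem cells Cbx7 is the main chromobox subunit and itself holds Cbx2 and Cbx8 in check, and these take its place as the cells differentiate.

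Gene expression had been measured by 3′ RNA sequencing in whole zebrafish embryos of the wild-type line Tropical 5D. The FBSA group was held from 8 h after fertilization in perfluorobutane sulfonamide (FBSA), a perfluorinated compound with a short carbon chain, at 47 µM, and the control group in the solvent alone; both had 0.5% methanol, had been freed of the chorion at 4 h and were collected at 48 h. There were 3 libraries per group, each from a pool of 10 embryos. The comparison addresses how exposure during development altered transcript levels.

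Reads in genes numbered 27719471 to 33356411 in the FBSA libraries and 23906021 to 32108756 in the control libraries. Values below are normalized counts, that is, reads divided by 1 size factor per library. Since each transcript is read at its 3′ end, they are not divided by gene length. Tests were limma's on log2(normalized count + 1) over 16890 genes, with a Benjamini-Hochberg adjusted p under 0.05 as the threshold. On the first principal component FBSA replicate 2 had the highest score, 53.95, and control replicate 2 the lowest, −65.5. All 11 genes matched as markers of tissues of the whole embryo were detected, 10 of them in every library, among them the neuronal ELAVL3, the epidermal krt4 and the lens gene CRYAA.

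The gene cbx6a dominated the family in both groups. In FBSA embryos the mean levels followed the order cbx6a (808 ± 51.6 normalized counts), cbx7a (393 ± 299), cbx2 (357 ± 59.6), CBX8 ENSDARG00000087327 (109 ± 43.7), CBX8 ENSDARG00000098771 (74.5 ± 14.5), CBX7 (16.1 ± 9.79) and cbx6b (14.8 ± 11.1; SD, n = 3 each). In control embryos the order was cbx6a (1035 ± 64.6 normalized counts), cbx2 (197 ± 64.6), CBX8 ENSDARG00000087327 (116 ± 24.5), cbx7a (79.8 ± 7.55), CBX8 ENSDARG00000098771 (57.5 ± 13.5), CBX7 (8.64 ± 6.58) and cbx6b (6.02 ± 1.88; SD, n = 3 each). Library ranges of neighbours in these orders overlapped for cbx7a and cbx2, for both CBX8 identifiers and for CBX7 and cbx6b in the FBSA group, and for cbx2 and CBX8 ENSDARG00000087327 and for CBX7 and cbx6b in the control group. The other neighbours had separate ranges.

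**Figure D1:**
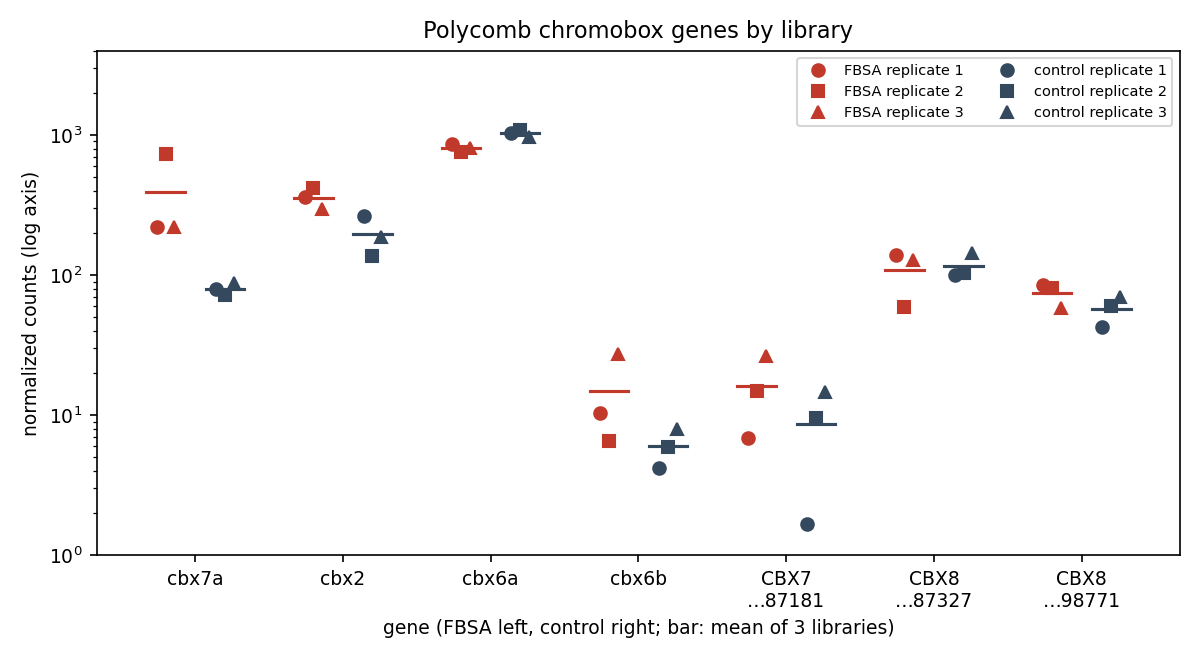
Normalized counts (log axis) of the 7 Polycomb chromobox genes in each library, FBSA in red on the left and control in dark blue on the right, with a bar at the mean of 3 libraries. All FBSA points of cbx7a and cbx2 lie above, and those of cbx6a below, every control point; the cbx7a value of 739 in FBSA replicate 2 stands above the other 2 FBSA values.

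The level of cbx7a was higher in every FBSA library. It was 219, 739 and 222 normalized counts in FBSA replicates 1 to 3, against 79.7, 72.4 and 87.4 in control replicates 1 to 3. The control libraries were close together, while FBSA replicate 2 stood far above the other FBSA libraries. These values rest on 253, 787 and 218 reads in the FBSA libraries and 95, 61 and 77 reads in the control libraries. The log2 fold change on the log2(value + 1) scale was 2.04 ± 0.38 (SE), a 4.11-fold higher level with FBSA, and it was 1.46 without FBSA replicate 2. Among the 96 genes that rose past the threshold cbx7a had the 11th largest fold change. Its place past the threshold, which is what chose it, held under 8 of 17 alternative settings and was lost under the other 9, among them limma-voom on the recovered reads. In these bulk libraries, a change in how many cells express a gene and a change in its RNA per cell cannot be told apart.

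The next largest difference among the well-counted members was in cbx2, the orthologue of a mammalian subunit that compacts nucleosomes and acts in gonad development. It had 359, 416 and 297 normalized counts in the FBSA libraries, against 266, 138 and 187 in the control libraries. The groups did not overlap, though the lowest FBSA value and the highest control value were near each other. The log2 fold change was 0.89 ± 0.24 (SE; 95% interval 0.38 to 1.41), a 1.86-fold higher level on the log2(value + 1) scale, and did not pass (limma adjusted p = 0.135). Without both libraries numbered 2, a setting added after the values were seen, it was 0.55.

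The most abundant member, cbx6a, differed in the other direction. It had 861, 758 and 804 normalized counts in the FBSA libraries, against 1043, 1095 and 966 in the control libraries. The groups did not overlap, and both were narrow. The mean was 1.28-fold lower with FBSA (log2 fold change −0.36 ± 0.12 SE; 95% interval −0.62 to −0.09) and did not pass (limma adjusted p = 0.228).

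The remaining members overlapped between the groups. CBX8 ENSDARG00000098771 had 84.8, 80.7 and 57.9 normalized counts in the FBSA libraries, against 42.8, 60.5 and 69.3 in the control libraries (log2 fold change 0.38 ± 0.31 SE; adjusted p = 0.631, limma). CBX8 ENSDARG00000087327 had 140, 59.1 and 128 normalized counts in the FBSA libraries, against 101, 103 and 144 in the control libraries (log2 fold change −0.16 ± 0.33 SE; adjusted p = 0.865, limma). FBSA replicate 2, the library highest in cbx7a, was the lowest in this gene. Leaving that library out turned the direction, to a log2 fold change of 0.23. The 95% intervals, −0.30 to 1.06 and −0.88 to 0.55, leave room for a change of over 1.5-fold in at least 1 direction for both identifiers.

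CBX7 and cbx6b were near the limit of what these libraries can count. CBX7 had 8, 16 and 26 reads in the FBSA libraries, against 2, 8 and 13 in the control libraries. Its values of 6.93, 15.0 and 26.4 normalized counts with FBSA and 1.68, 9.49 and 14.8 in control overlapped (log2 fold change 0.99 ± 0.83 SE, limma adjusted p = 0.634). The counts of cbx6b were 12, 7 and 27 reads in the FBSA libraries, against 5, 5 and 7 in the control libraries. It had fewer than 3 libraries with 10 or more normalized counts and was not tested.

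Of the 6 members tested, 1 passed the threshold, cbx7a, where 0.705% of all genes tested did, 0.568% higher and 0.136% lower with FBSA. That count restates how cbx7a was chosen. Of the 5 others tested, all taken by name, 0 passed (limma; also 0 with limma-voom). At an unadjusted p under 0.05, cbx2 was higher and cbx6a was lower, where 7.34% of all genes were higher and 6.25% lower. Of the 5 taken by name and tested, 1, cbx2, had all FBSA libraries above all controls, where 10.0% of all genes did. Another 1, cbx6a, had all FBSA libraries below, where 9.91% did.

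**Figure D2:**
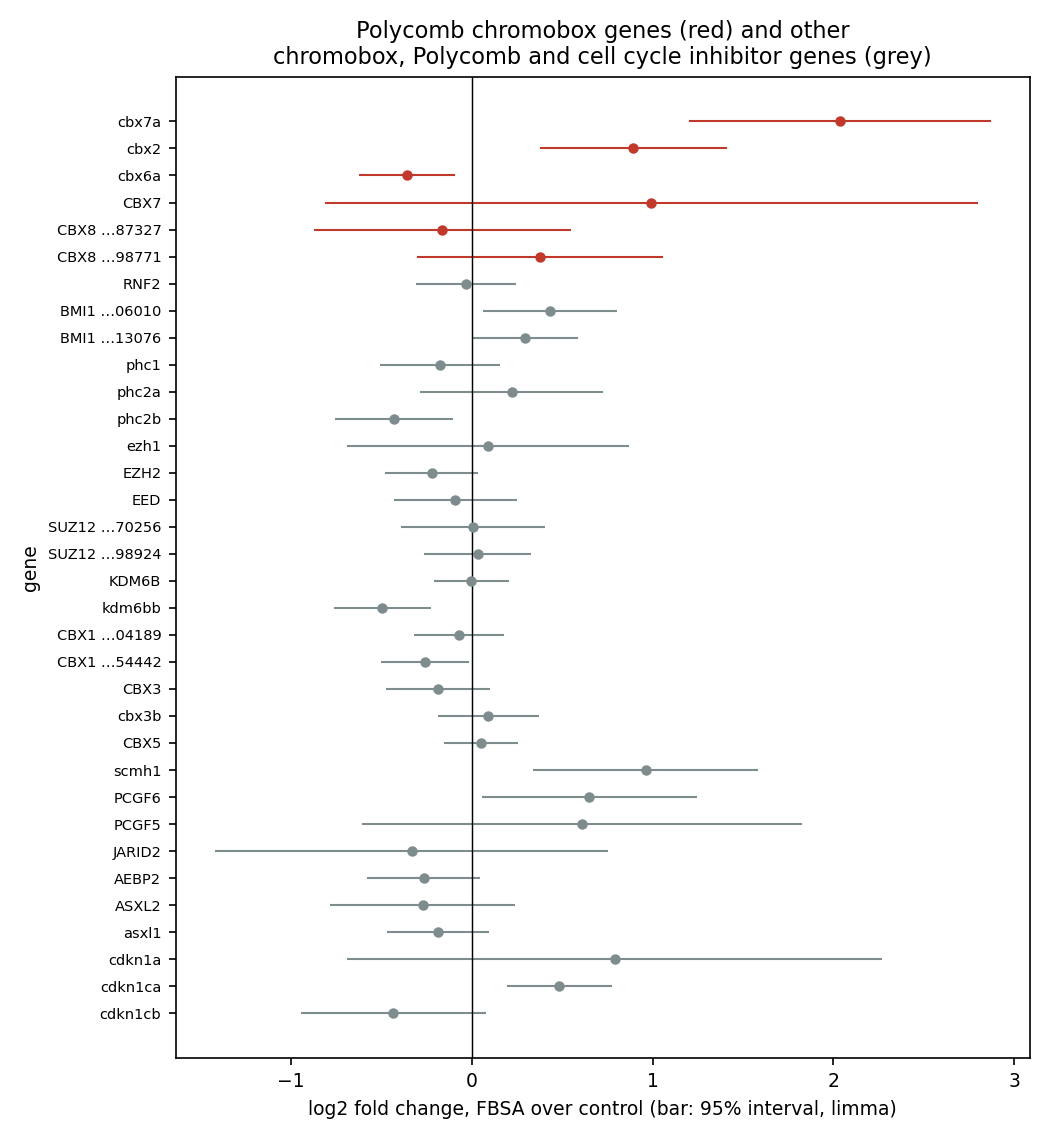
Log2 fold change, FBSA over control, with its 95% interval from limma, for the 6 Polycomb chromobox genes tested (red) and for the other chromobox, Polycomb and cyclin-dependent kinase inhibitor genes named in the text (grey). JARID2 ENSDARG00000062268, rybpa and SFMBT2, named after their values were seen, are not drawn. The interval of cbx7a, 1.20 to 2.87, lies farthest to the right, and CBX7, PCGF5 and cdkn1a have wide intervals.

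The makeup of the family's reads was also compared. Of the reads of the 7 genes, cbx7a held 13.0%, 35.6% and 14.2% in FBSA replicates 1 to 3, with 95% Wilson intervals of 11.6% to 14.6%, 33.6% to 37.6% and 12.5% to 16.0%. In control replicates 1 to 3 it held 5.18%, 4.88% and 5.92%, with intervals of 4.26% to 6.29%, 3.81% to 6.21% and 4.76% to 7.33%. The intervals cover counting error only: the deposited values do not separate molecules from their amplified copies.

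The share of cbx6a was 46.4% ± 8.53 in FBSA libraries and 69.0% ± 4.31 in control libraries, and that of cbx2 was 20.1% ± 1.18 and 13.1% ± 4.02 (SD, n = 3 each). Shares of 1 total move against each other, so a larger share of cbx7a alone makes the others smaller. In FBSA replicate 2, cbx7a (35.6%) nearly equalled cbx6a (36.6%). Without cbx7a, the summed level of the other 6 genes was 1380 ± 72.3 normalized counts in FBSA libraries and 1420 ± 34.8 in control libraries (SD, n = 3 each), and the ranges overlapped.

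**Figure D3:**
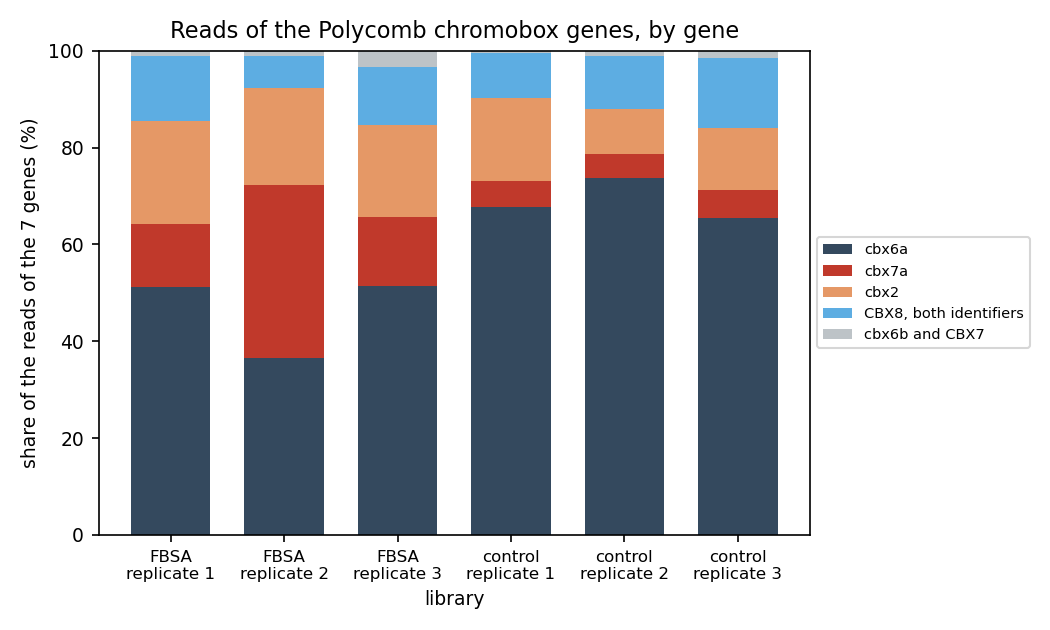
Share of the reads of the 7 genes (%) held by each gene in each library, FBSA libraries on the left and control libraries on the right. The red band, cbx7a, is 13.0% to 35.6% in FBSA libraries and 4.88% to 5.92% in control libraries, and the dark band, cbx6a, is the largest in all 6.

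Within-library ratios of duplicated genes were compared for 2 pairs. All ratios here are differences on the log2(value + 1) scale, which understates ratios to low genes such as cbx6b and CBX7. The log2 ratio of cbx6a to cbx6b was 6.24, 6.65 and 4.82 in the FBSA libraries, against 7.65, 7.30 and 6.76 in the control libraries. These did not overlap, and the mean ratio was lower with FBSA by a log2 difference of −1.33 (two-sided exact permutation p = 0.1, the smallest that 3 against 3 libraries allow; 0.2 adjusted over the 2 pairs). The cbx6b side of this ratio rests on 5 to 27 reads per library. For CBX8 ENSDARG00000087327 to ENSDARG00000098771 the log2 ratios were 0.72, −0.44 and 1.13 with FBSA and 1.21, 0.76 and 1.05 in control, which overlapped (two-sided exact permutation p = 0.4). The log2 ratio of cbx7a to CBX7 was 4.79, 5.53 and 3.02 with FBSA and 4.91, 2.81 and 2.49 in control; it overlapped, and is given without a test because of how cbx7a was chosen.

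Across the 6 libraries the levels of cbx7a and cbx2 had a Pearson correlation of 0.84 and those of cbx7a and cbx6a one of −0.93, on the log2 scale. All of these points share the split between exposed and control libraries. Without FBSA replicate 2 the values were 0.80 and −0.95 over 5 libraries. The correlation of CBX8 ENSDARG00000087327 with cbx7a was −0.59 with all libraries and 0.59 without FBSA replicate 2.

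The other subunits of Polycomb repressive complex 1 had values on both sides of 0. Of 28 symbols listed, 3 (ring1, pcgf2 and pcgf3) were not matched, and the rest gave 24 genes, of which 23 were tested. None passed (limma; also 0 with limma-voom). At an unadjusted p under 0.05, 3 were higher and 4 lower, where 7.34% of all genes were higher and 6.25% lower. Above 0 on the log2 fold change scale were 11 of 23, beside 8417 of 16890 for all genes tested. The median log2 fold change was −0.02, beside −0.0009 for all genes tested. All FBSA libraries lay above all controls in 5 of the 23 and below in 6, where 19.9% of all genes tested did one or the other. This list was not tested as a whole.

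RNF2, the ubiquitin ligase at the core of the complex, had 753, 917 and 904 normalized counts with FBSA and 906, 849 and 868 in control, which overlapped (log2 fold change −0.03 ± 0.13 SE). Both identifiers of BMI1, its RING partner, had all FBSA libraries above all controls, where 10.0% of all genes tested did. BMI1 ENSDARG00000006010 had 589, 741 and 629 normalized counts with FBSA and 523, 381 and 558 in control (log2 fold change 0.43, limma adjusted p = 0.29). BMI1 ENSDARG00000013076 had 681, 764 and 632 with FBSA and 590, 533 and 568 in control (log2 fold change 0.29, limma adjusted p = 0.369).

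The polyhomeotic subunits, which join complexes through their SAM domain, differed among themselves. The level of phc2b was lower in every FBSA library, at 1142, 835 and 1167 normalized counts, against 1534, 1448 and 1225 in control (log2 fold change −0.43, limma adjusted p = 0.238). The genes phc1 and phc2a overlapped between groups, with log2 fold changes of −0.18 and 0.22. The largest log2 fold change among those tested was that of scmh1, a homologue of the fly Sex comb on midleg gene, with 144, 122 and 107 normalized counts with FBSA and 80.5, 45.1 and 68.1 in control (log2 fold change 0.96 ± 0.29 SE, limma adjusted p = 0.174). PCGF6 and PCGF5, the RING partners of variant complexes, had log2 fold changes of 0.65 and 0.61, and neither passed (limma adjusted p = 0.321 and 0.667). Without control replicate 1 the log2 fold change of PCGF5 was 0.03. In the other direction, rybpa had 621, 525 and 686 normalized counts with FBSA and 934, 886 and 868 in control. Its log2 fold change was −0.56 (limma adjusted p = 0.101), and it is named after its values were seen. The lowest log2 fold change among those tested was that of SFMBT2, −0.57 (limma adjusted p = 0.564), also named after its values were seen. It had 26.8, 20.7 and 24.4 normalized counts with FBSA and 40.2, 29.7 and 38.6 in control.

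Polycomb repressive complex 2 writes the mark that chromobox proteins read. Of 14 symbols listed, 2 were not matched, and 10 of 12 matched genes were tested. None passed (limma; also 0 with limma-voom), 0 had an unadjusted p under 0.05, and the log2 fold changes of those tested ran from −0.33 to 0.21 with a median of −0.06. EZH2, the methyltransferase, had 1327, 1237 and 1390 normalized counts with FBSA and 1402, 1693 and 1526 in control. Its groups did not overlap, but only just, and the difference did not pass (log2 fold change −0.22, limma adjusted p = 0.44).

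The values of the other subunits of that complex lay on both sides of 0. Those of the second methyltransferase gene ezh1 and of the core genes EED and SUZ12 (ENSDARG00000070256 and ENSDARG00000098924) were 0.09, −0.09, 0.01 and 0.03 as log2 fold changes, and all 4 overlapped between groups. All FBSA libraries lay below all controls in 2 of the 10 genes tested, EZH2 and AEBP2, and above in 0. Of all genes tested, 19.9% did one or the other. The accessory gene AEBP2 had a log2 fold change of −0.27 (limma adjusted p = 0.45). JARID2 ENSDARG00000060925, with 11.2 to 32.9 normalized counts in FBSA libraries and 23.5 to 32.9 in control libraries, had one of −0.33. JARID2 ENSDARG00000062268, with 329 to 411 normalized counts in FBSA libraries and 298 to 337 in control libraries, had one of 0.21 and is named after its values were seen.

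Of 7 genes measured for the enzymes that remove Polycomb marks, 0 passed (limma; also 0 with limma-voom). At an unadjusted p under 0.05, 1 was lower, where 6.25% of all genes were. That gene was kdm6bb, of the family that demethylates lysine 27. It had 3136, 2569 and 3397 normalized counts with FBSA and 4054, 4751 and 3982 in control (adjusted p = 0.106 in limma, at a log2 fold change of −0.50 ± 0.12 SE). Every FBSA library was lower, as in 9.91% of all genes tested. KDM6B, the other identifier of that gene pair, differed by −0.0034 on the log2 scale, with overlapping groups. ASXL2 and asxl1, partners of the H2A deubiquitinase, had log2 fold changes of −0.27 and −0.18. The median over the 7 was −0.13, beside −0.0009 for all genes tested.

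The heterochromatin protein 1 genes share the chromodomain but bind the lysine 9 mark in place of the lysine 27 mark. Of the 5 measured, 0 passed (limma; also 0 with limma-voom), and their log2 fold changes lay between −0.26 and 0.09. Those of the 5 Polycomb chromobox genes taken by name and tested ran from −0.36 to 0.99. The upper end was CBX7, which had 2 to 26 reads per library, and cbx7a is left out because of how it was chosen. CBX1 ENSDARG00000054442 had 1921, 1685 and 2063 normalized counts with FBSA and 2169, 2257 and 2337 in control, which did not overlap (log2 fold change −0.26, limma adjusted p = 0.333). Every FBSA library was lower, as in 9.91% of all genes tested. At an unadjusted p under 0.05 (limma), this gene was lower and 0 of the 5 were higher, where 6.25% of all genes were lower and 7.34% higher. CBX1 ENSDARG00000004189, CBX3, cbx3b and CBX5 overlapped, with log2 fold changes of −0.07, −0.19, 0.09 and 0.05. Whether the 2 chromobox groups differ was not tested.

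**Figure D4:**
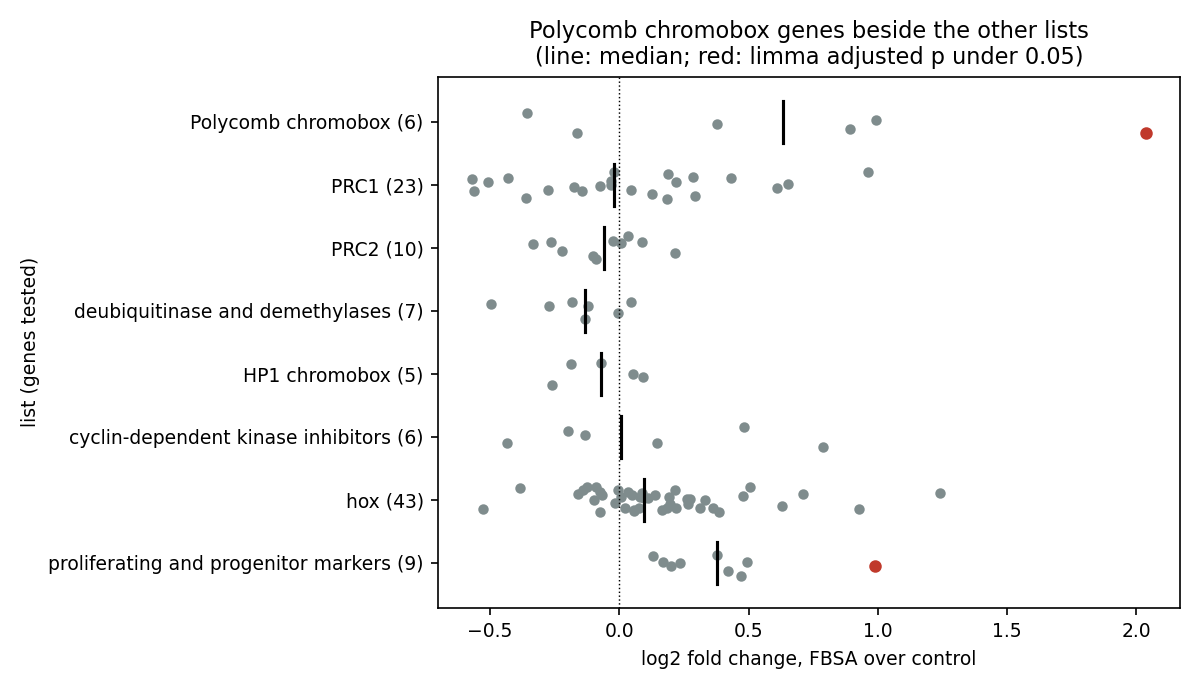
Log2 fold change, FBSA over control, of each tested gene in the Polycomb chromobox group and in 7 other lists, with a line at each median; red points passed the limma threshold and heights within a row are random. The medians of Polycomb repressive complexes 1 and 2 lie at −0.02 and −0.06, and the 9 proliferation and progenitor markers all lie above 0, with ascl1a past the threshold.

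Known mammalian targets of Polycomb repression were looked at next. The locus cdkn2a/b, the classic target of mammalian CBX7, was not matched to a measured gene. Of 6 cyclin-dependent kinase inhibitor genes measured, 0 passed (limma; also 0 with limma-voom). At an unadjusted p under 0.05, 1 was higher and 0 lower, where 7.34% of all genes were higher and 6.25% lower. All FBSA libraries lay above all controls in 1 and below in 1, where 19.9% of all genes tested did one or the other. The level of cdkn1ca was higher in every FBSA library, at 2156, 2841 and 2007 normalized counts, against 1561, 1718 and 1674 in control (log2 fold change 0.48 ± 0.13 SE, limma adjusted p = 0.15). Its paralogue cdkn1cb was lower in every FBSA library, at 88.3, 114 and 111 normalized counts, against 117, 157 and 150 in control (log2 fold change −0.43, limma adjusted p = 0.448). The values of cdkn1a, 18.2, 19.7 and 66.1 with FBSA and 6.71, 15.4 and 39.7 in control, overlapped.

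Of 48 hox genes matched, 43 were tested and 0 passed (limma; also 0 with limma-voom). At an unadjusted p under 0.05, 4 of the 43 were higher and 0 lower, where 7.34% of all genes were higher and 6.25% lower, and all FBSA libraries lay above all controls in 5 and below in 2, where 19.9% of all genes tested did one or the other. The median log2 fold change was 0.09, and 31 of 43 were above 0, beside 8417 of 16890 for all genes tested. The hox list was not tested as a whole. The 3 with the largest differences among those averaging at least 20 normalized counts were hoxa2b, a gene of the hindbrain and neural crest, hoxa13a and hoxc1a, at log2 fold changes of 1.24, 0.93 and 0.71 (limma adjusted p = 0.203, 0.416 and 0.112). Without control replicate 2 the log2 fold changes of hoxa2b and hoxa13a were 0.67 and 0.45, and that of hoxc1a was 0.65. The level of hoxa2b was 246, 249 and 160 normalized counts with FBSA, against 150, 40.3 and 119 in control, and hoxc1a had 580, 696 and 437 with FBSA, against 361, 313 and 355 in control. Both had separate groups, while hoxa13a overlapped.

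Markers of proliferating and progenitor cells lay on the same side as cbx7a and cbx2. For all 9 the log2 fold change was above 0, beside 8417 of 16890 for all genes tested. Their median was 0.38, and 5 were higher at an unadjusted p under 0.05, where 7.34% of all genes were. These counts are a description: the list was chosen with earlier results of these data known and was not tested as a whole. Of the 9, ascl1a, a proneural gene, rose (log2 fold change 0.99, limma adjusted p = 0.0283), at 1003, 1548 and 904 normalized counts with FBSA and 587, 587 and 520 in control, and 8 did not pass. The ascl1a call was lost in 7 of the 17 alternative settings, where its adjusted p (limma) reached 0.103. The summed level of the 9 markers was 26807, 31413 and 27621 normalized counts in FBSA libraries, against 22479, 24883 and 23098 in control libraries, with FBSA replicate 2 the highest. PCNA was the largest part of that sum, at 10432 to 11692 with FBSA and 9366 to 11226 in control, which overlapped. All FBSA libraries lay above all controls in 5 of the 9 markers, where 10.0% of all genes tested did. The part of proliferating and progenitor cells in the cbx7a and cbx2 values was not tested. Of 5 leukocyte marker genes, with summed levels of 235 to 293 normalized counts in FBSA libraries and 301 to 337 in control libraries, 0 of the 4 tested passed (limma; also 0 with limma-voom), with 0 at an unadjusted p under 0.05.

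The 6 genes whose levels were most like those of cbx7a over the 6 libraries, among 13052 candidates, were tnnt2c, arpp21, nfybb, SPTSSA, dcp1a and MDK, with Pearson correlations of 0.9988, 0.9986, 0.9936, 0.9912, 0.9911 and 0.9898 on the log2 scale. The best match, tnnt2c, a troponin T gene, had 730, 1407 and 752 normalized counts with FBSA and 462, 445 and 469 in control. The same shape, with FBSA replicate 2 highest and the controls close together, held in arpp21, which encodes a phosphoprotein regulated by cyclic AMP, at 185, 357 and 172 with FBSA and 102, 96.1 and 107 in control. None of the 6 passed the threshold (limma adjusted p from 0.0632 to 0.378). Without FBSA replicate 2 the correlations were 0.972 to 0.998 over 5 libraries. These genes were picked for that likeness, and it was not tested.

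In the RefSeq annotation of assembly GRCz12tu, used for gene order alone, cbx7a lies between desi1a and ep300b, and cbx7b lies between josd1 and ep300a with desi1b near by. On the same chromosome as cbx7a are cbx6b, with 16 protein-coding genes between them, cbx8a, with 139 between, and cbx2, with 349 between. Of the 3 nearest protein-coding genes on each side of cbx7a, xpnpep3 and st13 were matched by symbol to a single measured gene. The aminopeptidase gene xpnpep3 had 90.9, 103 and 115 normalized counts with FBSA and 84.7, 56.9 and 96.5 in control (log2 fold change 0.40, limma adjusted p = 0.562). The gene st13, of a heat shock protein cofactor, had a log2 fold change of −0.10 (limma adjusted p = 0.767).

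The directions of cbx7a, cbx2 and cbx6a held under all 17 alternative settings, while CBX8 ENSDARG00000087327 turned under 3. The log2 fold change of cbx7a ranged from 1.18 to 2.33 over these alternatives, that of cbx2 from 0.55 to 1.14 and that of cbx6a from −0.41 to −0.27. The lowest cbx7a value came from the deposited log2 values, whose transformation shrinks changes of low genes, and the next lowest from leaving out both libraries numbered 2.

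**Figure D5:**
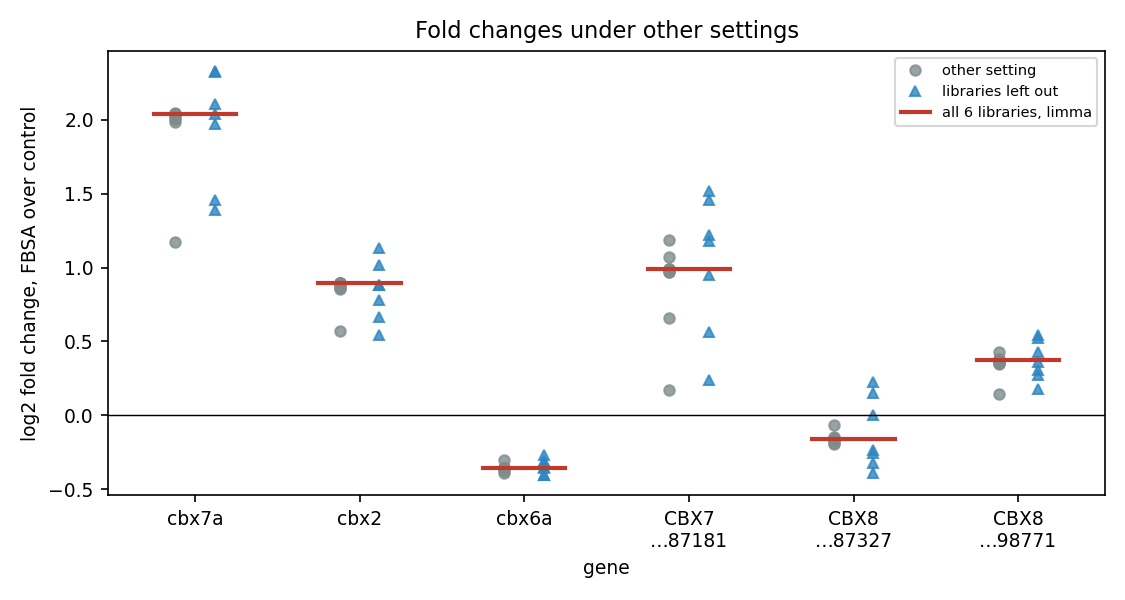
Log2 fold change, FBSA over control, of the 6 Polycomb chromobox genes tested, with all 6 libraries (red line), under other settings (grey circles) and with libraries left out (blue triangles). The points of cbx7a and cbx2 stay above 0 and those of cbx6a below it, while CBX8 ENSDARG00000087327 crosses 0.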

How the data were processed

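The samples were 6 libraries of whole zebrafish embryos, 3 FBSA and 3 control, made with a QuantSeq 3′ FWD kit, per the labels' protocols. Per the submitters' processing notes, the tools were STAR, HTSeq and DESeq2 and the build GRCz11. Their versions, the annotation and how reads that match more than 1 gene were handled are not given in the sources used here, so the separate values of duplicated genes are uncertain. Nothing says whether pools came from separate clutches, so the p-values reflect only how these pools vary.

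In the deposited table each of 24462 genes has log2 values with a common floor of 6.52. Its column names stand 1 cell to the left of their values and were shifted back; read unshifted, the name over the column used here as control replicate 3 would be an FBSA one, and without that column the log2 fold change of cbx7a was 2.11. Undoing the variance-stabilising form of the values gave whole reads divided by 1 size factor per library (100.0% of values above the floor within 0.1 of a whole number), tested on simulated data. Chi-square per degree of freedom between libraries was 10.8 to 57.3, so no library copied another.

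Genes reaching 10 normalized counts in 3 libraries or more were fitted with limma 3.58.1 in R 4.3.3 (trend, two-sided, group as the only term, pseudocount 1), with Python 3.11.15 for the rest. The fit was tested on simulated data. Fold changes on the log2(value + 1) scale understate those of low genes. Symbols came from a table that named 22817 of the 24462 identifiers; a capital symbol without a paralogue letter was accepted, which can add a paralogue. Results for some individual genes are not reported here. Members and lists were chosen with earlier results of these data known. Named genes were the members, core Polycomb and heterochromatin protein 1 genes, the genes of each list past the threshold or else the 3 largest differences with a mean of 20 or more, and the 6 genes most correlated with cbx7a. Alternatives covered the pseudocount, filter, scaling, moderation, limma-voom, deposited values, replicate block and each library left out.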

Additional observations from a re-analysis of the deposited data

How the results depend on the processing

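Past the threshold were 119 genes, with 96 higher and 23 lower; the alternatives of pseudocount, filter, scaling, moderation and limma-voom and the deposited values kept each count within 1.5 times. With each library left out it ran from 53 to 102, with 46 to 87 higher and 4 to 23 lower, the totals being 53 when control replicate 3 was left out, 57 for FBSA replicate 1 and 58 for FBSA replicate 2, and the lower genes 4, 5 and 12 (12 also without control replicate 1 and 15 without control replicate 2). The replicate number as a block gave 47 genes, 40 higher and 7 lower; same-numbered libraries did not deviate together (correlations 0.0211, −0.141 and −0.0046), so the numbers were not taken as pairs. The adjusted p of cbx7a (limma) ran from 0.019 to 0.112, and its call was lost without FBSA replicate 1 or any 1 control library, with scaling to total reads, robust moderation, limma-voom, the block or the deposited values; the cause was not tested. No other member passed under any of the 17 alternatives. The ascl1a call was lost with scaling to total reads, the block, or with FBSA replicate 1, FBSA replicate 2 or any 1 control library left out (log2 fold change 0.76 to 1.14 over the alternatives). Over 37 named genes the direction turned in 20 gene and setting pairs, all of genes not past the threshold. With 1 library left out, the log2 fold change ran from −0.39 to 0.23 for CBX8 ENSDARG00000087327 (above 0 without FBSA replicate 2 or control replicate 3), from −0.083 to 0.059 for RNF2, from −0.055 to 0.43 for phc2a, from −0.068 to 0.21 for ezh1, from −0.18 to 0.0014 for EED, from −0.11 to 0.066 for SUZ12 ENSDARG00000070256, from −0.049 to 0.049 for KDM6B and from −0.64 to 0.096 for JARID2 ENSDARG00000060925. Without both libraries numbered 2, a setting chosen after seeing the data, CBX8 ENSDARG00000087327 was at 0.15, phc2a at −0.20, SUZ12 ENSDARG00000070256 at −0.095 and SUZ12 ENSDARG00000098924 at −0.012, and 138 genes passed, 106 higher and 32 lower. SUZ12 ENSDARG00000070256 was at −0.025 with scaling to total reads, −0.017 with upper quartile scaling and −0.0089 with limma-voom. The paralogue ratio differences kept their sign, from −1.70 to −0.49 for cbx6 and from −0.87 to −0.08 for CBX8. CBX7 and cbx6b had 2 to 27 reads per library: the 95% interval of CBX7 ran from −0.81 to 2.80, and cbx6b was not tested.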
